A study of Mus musculus with 12 samples.

Results

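The interleukin-6 (IL-6) family was followed in CT-26 tumors through 10 genes: the cytokines Il6, Lif, Osm, Il11 and Clcf1, and the receptor subunits Il6ra, Il6st, Lifr, Osmr and Il11ra1. The genes were chosen by symbol, and all 10 were found among the 30630 mouse genes listed for every tumor. CT-26 cells are a mouse line of colon carcinoma. Male BALB/c mice, 4 to 6 weeks old when purchased, carried CT-26 cells injected under the skin of the right flank. RNA was sequenced from 6 tumors of the control group, which did not swim, and from 6 tumors of the swimming group, which had 2 swimming sessions per day of at most 30 min, 6 days per week, during 3 weeks. Each group held 10 mice, and the tumors are numbered 1 to 6 in each group. No gene was deleted or introduced in either group, and all tumors came from a single cell line in immunocompetent hosts.

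IL-6 family cytokines act through receptor complexes that contain the shared signal-transducing subunit Il6st. IL-6 first binds Il6ra and IL-11 binds Il11ra1, both of which pass the signal to Il6st, while LIF joins Lifr with Il6st and oncostatin M joins Osmr with Il6st. The complexes activate JAK kinases and mainly STAT3, and SOCS3 is induced as a feedback inhibitor. In colon tumors, IL-6 and IL-11 are known as cytokines through which immune and stromal cells act on tumor cells.

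Expression is given in FPKM, a fragment number that the authors divided by gene length and sequencing depth, so that levels of different genes can be set side by side. FPKM values hold no read numbers, and the absolute depth is unknown. Judged by how the smallest values of lowly expressed genes scale between tumors (the modal ratio), the depth relative to control 1 was 0.694 for control 2 and ranged from 0.871 to 1 elsewhere. In these whole tumors, fewer cells of a type and less RNA per cell cannot be told apart. The label of the tumors was checked with 8 genes of colon epithelium. Krt20, an intestinal keratin, was at 140.0 FPKM on average over the 12 tumors, whereas Epcam, an epithelial adhesion gene, reached at most 0.177 FPKM and Vil1, a gene of the brush border, stayed below 0.1 FPKM in every tumor. Thus only part of the epithelial markers was present in these tumors.

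Il6st was the member with the highest mean level, 14.4 ± 2.71 FPKM (SD, n = 12), and Il11 followed with 13.7 ± 5.3 FPKM. These neighbours were not separated, because Il6st was above Il11 in 6 of 12 tumors. Il6ra at 6.28 ± 0.632 FPKM and Clcf1 at 5.96 ± 1.29 FPKM were not separated either, with Il6ra above Clcf1 in 6 of 12 tumors. Lif, at 4.86 ± 0.913 FPKM, was above Il11ra1, at 2.6 ± 0.691 FPKM, in all 12 tumors. Osm at 1.42 ± 0.546 FPKM, Osmr at 0.972 ± 0.269 FPKM and Lifr at 0.834 ± 0.559 FPKM formed the lower end, where Osm was above Osmr in 9 tumors and Osmr above Lifr in 8 tumors. Il6, the cytokine that gives the family its name, was the lowest at 0.297 ± 0.146 FPKM, a level that exceeded that of 16.3% of the 19018 genes tested. Between tumors, Il11 varied more than most genes of similar level. The SD of its log2 values was 0.52, larger than that of 96.3% of the 2507 genes within 0.5 on the log2 scale of its mean. Il6ra was among the steadier members, with an SD of 0.12, larger than that of 37.0% of 2738 such genes.

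**Figure D1:**
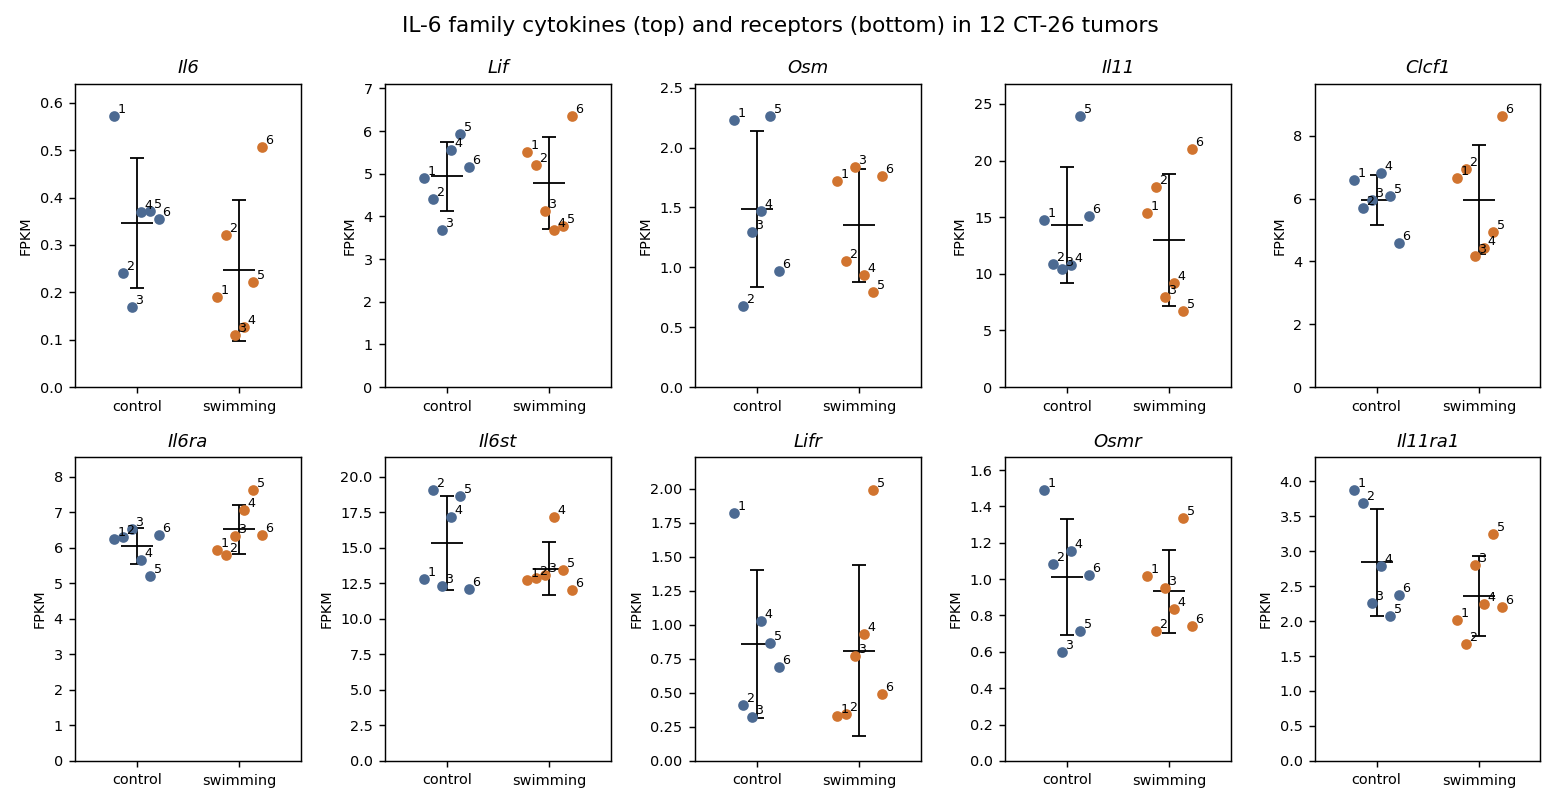
FPKM (vertical axes, starting at 0) of the 5 cytokines and 5 receptor subunits in 6 control tumors (blue) and 6 swimming tumors (orange), with tumor numbers beside the points and bars for mean ± SD. The 2 groups overlap in every gene, and control 5 and swimming 6 hold the highest Il11 values, 23.9 and 21.1 FPKM.

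To find out whether swimming was accompanied by a different level of the family, the groups were compared on log2(FPKM + 1) with limma's moderated test across 19018 genes. None of the 10 members passed the test for a difference between the control and swimming groups. On the log2(FPKM + 1) scale, the mean was lower in the swimming group for 9 members and higher for Il6ra, with a median log2 fold change of -0.06 over the 10 genes and 0.004 over all genes tested. At an unadjusted p below 0.05, 0 of 10 members were found, against 5.56% of all genes tested. After Benjamini-Hochberg adjustment over all genes, 0 members and 0.0% of all genes passed 0.05 in limma's test. A log2 fold change below 0 was also found for 48.3% of all genes. The members share tumors and vary together, so that 9 of 10 in one direction is not 9 separate results. The values of the groups overlapped for each of the 10 members, and they did not overlap for 0.147% of all genes.

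**Figure D2:**
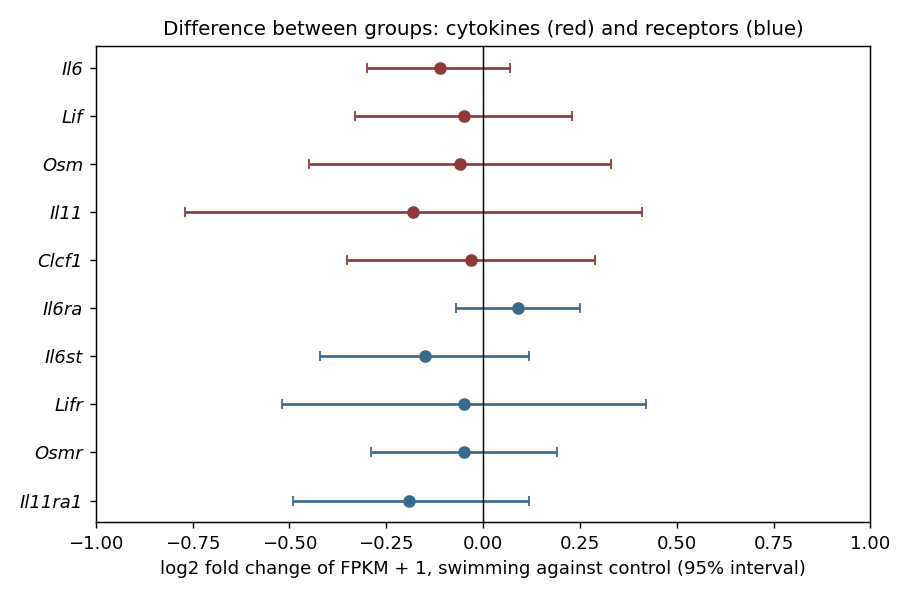
Log2 fold change of FPKM + 1 between the swimming and control groups for each member (horizontal axis), with 95% intervals from limma's moderated test and n = 6 tumors per group. All 10 intervals include 0, the widest being that of Il11, from -0.77 to 0.41.

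Among the cytokines, Il6 (ENSMUSG00000025746, chromosome 5, 30013114 to 30019981 in GRCm38, 4 annotated transcripts) had its lowest, median and highest values at 0.17, 0.362 and 0.572 FPKM in the control group. In the swimming group they were 0.111, 0.206 and 0.507 FPKM. Swimming 3 and swimming 4 were below all control tumors, and only swimming 6 was above the control median. The log2 fold change was -0.11 (standard error, SE, 0.09, limma adjusted p = 0.917, two-sided exact permutation p = 0.24). Since these values lie far below 1 FPKM, the log2(FPKM + 1) scale understates the difference. With a pseudocount of 0.1 or 0.01 in place of 1, the log2 fold change of Il6 was -0.41 and -0.57, and limma gave unadjusted p values of 0.184 and 0.177. Without swimming 6 it was -0.17 and limma gave an unadjusted p of 0.0484, the only member and the only tumor left out for which any member fell below 0.05.

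Il11 (ENSMUSG00000004371, chromosome 7, 4772373 to 4782859, 3 transcripts) encodes IL-11, a cytokine known from stromal and epithelial cells. It was lowest at 10.5, had a median of 12.8 and reached 23.9 FPKM in the control group, and the corresponding values in the swimming group were 6.71, 12.3 and 21.1 FPKM. Swimming 3, 4 and 5 were below all control tumors, whereas swimming 1, 2 and 6 were above the control median, so that the swimming tumors stood on both sides of the controls. The log2 fold change of -0.18 (SE 0.27, limma adjusted p = 0.961, two-sided exact permutation p = 0.558) had a 95% interval that corresponds to a fold between 0.585 and 1.33.

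Lif (ENSMUSG00000034394, chromosome 11, 4257557 to 4272514) encodes leukemia inhibitory factor and lies beside Osm (ENSMUSG00000058755, 4236420 to 4241026) on the same strand. Lif ranged from 3.68 to 5.93 FPKM (median 5.03) among control tumors and from 3.69 to 6.35 FPKM (median 4.67) among swimming tumors. Its log2 fold change was -0.05 (SE 0.13, two-sided exact permutation p = 0.721). Osm, which encodes oncostatin M and is known from myeloid cells, ranged from 0.676 to 2.26 FPKM (median 1.38) among control tumors and from 0.79 to 1.84 FPKM (median 1.39) among swimming tumors, a log2 fold change of -0.06 (SE 0.18, two-sided exact permutation p = 0.764). Both genes thus covered nearly the same range in the 2 groups. Clcf1 (ENSMUSG00000040663, chromosome 19, 4214238 to 4223490) encodes a cytokine that acts through Cntfr, Lifr and Il6st. It was 5.96 ± 0.784 FPKM among controls and 5.96 ± 1.74 FPKM among swimming tumors (SD, n = 6 each), with a log2 fold change of -0.03 (SE 0.15, two-sided exact permutation p = 0.877). Swimming 2 and 6 were above all control tumors for Clcf1 and swimming 3 and 4 below all of them. Cntfr was at most 0.242 FPKM in any tumor and did not enter the test. Exons of Clcf1 overlap those of another annotated gene on the same strand, so reads of the 2 cannot be told apart there.

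Of the receptors, Il6st (ENSMUSG00000021756, chromosome 13, 112464070 to 112510086, 10 transcripts) was between 12.1 and 19.1 FPKM (median 15.0) among control tumors and between 11.99 and 17.2 FPKM (median 12.9) among swimming tumors. Control 2, 4 and 5 and swimming 4 were above 17 FPKM, and the other 8 tumors lay between 11.99 and 13.4 FPKM. The log2 fold change was -0.15 (SE 0.13, limma adjusted p = 0.923, two-sided exact permutation p = 0.325). Il6ra (ENSMUSG00000027947, chromosome 3, 89864059 to 89913196), the subunit that binds IL-6, was between 5.2 and 6.54 FPKM (median 6.27) among control tumors and between 5.79 and 7.63 FPKM (median 6.34) among swimming tumors. Swimming 4 and 5 were above all control tumors, and the log2 fold change was 0.09 (SE 0.07, limma adjusted p = 0.922, two-sided exact permutation p = 0.212). A gene on the opposite strand, Gm42809, overlaps its exons but was at most 0.342 FPKM in any tumor.

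Osmr (ENSMUSG00000022146, chromosome 15, 6813577 to 6874969) and Lifr (ENSMUSG00000054263, chromosome 15, 7090614 to 7197489), the receptor subunits for oncostatin M and LIF, are neighbours on opposite strands. Osmr was between 0.6 and 1.49 FPKM (median 1.05) among control tumors and between 0.713 and 1.33 FPKM (median 0.894) among swimming tumors, a log2 fold change of -0.05 (SE 0.11, two-sided exact permutation p = 0.688). Lifr was between 0.325 and 1.82 FPKM (median 0.778) among control tumors and between 0.332 and 1.99 FPKM (median 0.631) among swimming tumors, a log2 fold change of -0.05 (SE 0.22, two-sided exact permutation p = 0.844). For both genes, control 1 and swimming 5 were the highest tumors of their groups. Il11ra1 (ENSMUSG00000073889, chromosome 4, 41699989 to 41769474, 10 transcripts), which binds IL-11, was between 2.07 and 3.88 FPKM (median 2.58) among control tumors and between 1.67 and 3.25 FPKM (median 2.22) among swimming tumors. Swimming 1 and 2 were below all control tumors, and the log2 fold change was -0.19 (SE 0.14, limma adjusted p = 0.917, two-sided exact permutation p = 0.242). The near-identical genes Il11ra2 and Gm13305 on the same chromosome can share reads with Il11ra1. Il11ra2 was listed at 0 in 9 of 12 tumors and at 0.046, 0.36 and 0.303 FPKM in swimming 3, 4 and 5, and Gm13305 was at most 0.072 FPKM. With the 3 genes added up, the means were 2.87 ± 0.78 FPKM (SD, n = 6) and 2.51 ± 0.676 FPKM (SD, n = 6), and the log2 fold change was -0.14.

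To see whether members varied together from tumor to tumor, they were set against each other. Of the 10 pairs of cytokines, 1 had a Benjamini-Hochberg adjusted p below 0.05 for r and 0 for rho, with adjustment over all 45 pairs of members. Over the 12 tumors and all 45 pairs of members, the closest pair was Lif and Il11 (r = 0.85, permutation p = 0.00082, Benjamini-Hochberg adjusted p, BH p, 0.0369, and rho = 0.82, permutation p = 0.00192, BH p 0.0864). Both were high in control 5 and swimming 6 and low in swimming 3, 4 and 5. The r was 0.67 within the control group and 0.94 within the swimming group, and 0.88 without control 3 and swimming 4, the tumors farthest from the median of Lif. Clcf1 went with Lif less closely (r = 0.71, permutation p = 0.0114, BH p 0.0789, rho = 0.72, permutation p = 0.0107, BH p 0.117, and 0.75 without the same tumors). This relation was 0.94 within the swimming group and 0.11 within the control group, and the difference was not tested. Il6 and Lif had an r of 0.7 (permutation p = 0.0123, BH p 0.0789, rho = 0.71, permutation p = 0.0128, BH p 0.117), with 0.77 without control 1 and swimming 6. Osm was less close to the other cytokines, with r between 0.38 and 0.51 (permutation p between 0.222 and 0.0872), and Il11 and Clcf1 had an r of 0.66 (permutation p = 0.0219, BH p 0.103, rho = 0.67, permutation p = 0.0206, BH p 0.154) that was 0.93 within the swimming group and -0.12 within the control group. Il6ra went the other way, with r = -0.74 to Lif (permutation p = 0.00408, BH p 0.0612, rho = -0.71, permutation p = 0.013, BH p 0.117), and -0.7 without control 3 and swimming 4. Of the 45 pairs, 2 had an adjusted p below 0.05 for r and 0 for rho.

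The second of these pairs was Osmr and Il11ra1 (r = 0.79, permutation p = 0.00212, BH p 0.0477, and rho = 0.74, permutation p = 0.00777, BH p 0.117). It was 0.82 within the control group, 0.79 within the swimming group and 0.76 without control 1 and control 3. Osmr and Lifr, although neighbours in the genome, had an r of 0.72 (permutation p = 0.00769, BH p 0.0716, and rho = 0.62, permutation p = 0.037, BH p 0.167) that fell to 0.32 without control 1 and swimming 5, so it rests on these tumors. Among the members, which do not include Cntfr, no ligand was related to its own receptor subunit at an adjusted p below 0.05. The r of Il11 with Il11ra1 was -0.49 (permutation p = 0.109, BH p 0.327, rho = -0.6, permutation p = 0.0421, BH p 0.172, and -0.34 without control 5 and swimming 5).

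**Figure D3:**
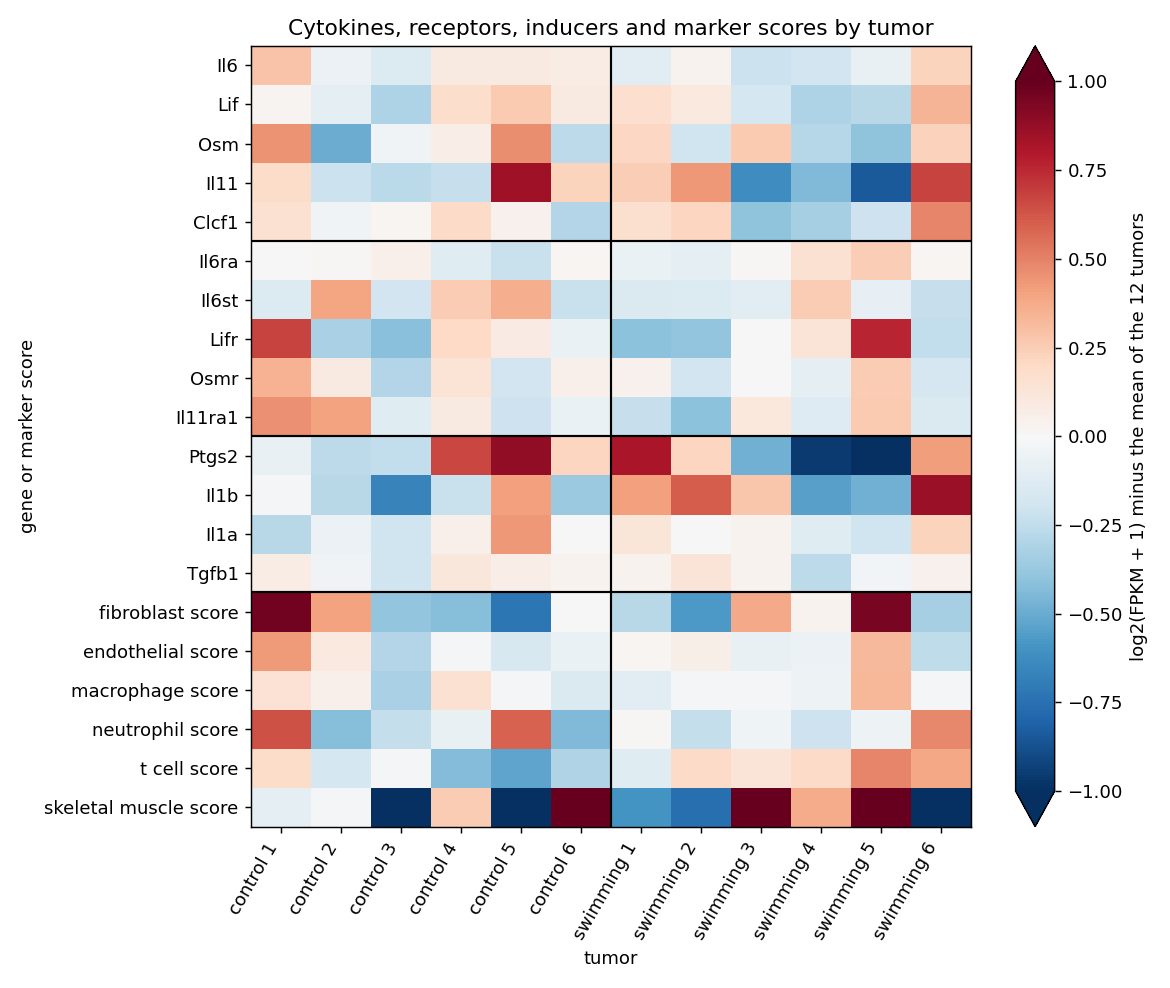
Log2(FPKM + 1) minus the mean of the 12 tumors (color, limited to ±1) for cytokines, receptors, 4 inducers and 6 marker scores (rows) in each tumor (columns, control left of the line). Ptgs2, Lif and Il11 are low together in swimming 3, 4 and 5 and high together in control 5 and swimming 6, and Lifr, Osmr and the fibroblast score are high in control 1 and swimming 5.

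Sequences before a RefSeq start of Il6, Lif and Il11 are shown because Lif and Il11 were the closest pair, Il6 gives the family its name, and AP-1, the FOS and JUN dimer, is a known regulator of cytokine genes such as Il6 and Il11. Windows from 250 bases before to 50 bases after a gene's start in RefSeq (GRCm38.p6) were found for 8 of the 10 members, with 11 windows in all, but not for Osm and Clcf1. The letters TGANTCA (AP-1, with N for any base) were in 4 of the 11 windows on either strand. These were the windows of Il6, Lif and Osmr and the downstream one of the pair of Il11 windows. The Osmr match read TGATTCA and began 3 bases after the start, whereas the others read TGAGTCA or TGACTCA. With N for any base, TGANTCA was in 7.81% of 32851 windows of all genes. The letters TGACGTCA (CRE) and TTCNNNGAA (STAT) were in 0 of the 11 windows, against 1.79% and 8.3% of all windows. Stretches of 100 bases are printed 5′ to 3′ in the direction of the gene, with the AP-1 letters in capitals, which begin 249, 228 and 98 bases before the RefSeq starts used for Il6, Lif and Il11. The start used for Il11 is the downstream one, 4718 bases inside the annotated gene, so that its stretch lies within the gene and not upstream of it. They are chr5:30012864-30012963 (plus strand), chr11:4257318-4257417 (plus strand) and chr7:4778186-4778285 (minus strand), and they overlap no annotated exon.
Il6: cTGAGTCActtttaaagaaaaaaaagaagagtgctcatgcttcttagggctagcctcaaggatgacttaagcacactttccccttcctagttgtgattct
Lif: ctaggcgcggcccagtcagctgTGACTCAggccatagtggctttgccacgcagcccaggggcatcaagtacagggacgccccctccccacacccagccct
Il11: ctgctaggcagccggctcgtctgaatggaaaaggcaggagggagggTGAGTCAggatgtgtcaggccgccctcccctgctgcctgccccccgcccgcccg
A match of letters is a description and no measurement of binding.

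To relate the cytokines to genes known to induce them, 8 inducers were followed in the same tumors. Ptgs2, the inducible cyclooxygenase of prostaglandin synthesis, was the most abundant of them at 42.3 FPKM and the one closest to Lif (r = 0.89, permutation p = 1.0e-04, BH p 0.004 over 40 relations, and rho = 0.87, permutation p = 0.00053, BH p 0.0212). The r was 0.89 within the control group, 0.92 within the swimming group and 0.84 without swimming 4 and 5. Ptgs2 was also related to Il11 (r = 0.8, permutation p = 0.002, BH p 0.0289, and rho = 0.83, permutation p = 0.00164, BH p 0.0269), with 0.68 without swimming 4 and 5. Ptgs2 itself was 46.6 ± 16.7 FPKM among controls and 38.0 ± 20.5 FPKM among swimming tumors (SD, n = 6 each). Il1a, an interleukin-1 gene, went with Lif as well (r = 0.73, permutation p = 0.00499, BH p 0.0499, rho = 0.8, permutation p = 0.00233, BH p 0.0269, and 0.89 without control 1 and control 5). For the other interleukin-1 gene, Il1b, and Lif the adjusted p was 0.0565 for r (0.75, permutation p = 0.00706) and 0.0269 for rho (0.8, permutation p = 0.00269), with an r of 0.67 without swimming 2 and 6. Tgfb1, a known inducer of Il11, was related to Lif (r = 0.75, permutation p = 0.00217, BH p 0.0289, rho = 0.77, permutation p = 0.00462, BH p 0.037), but r was 0.57 without control 3 and swimming 4 (permutation p = 0.0825), so it rests partly on these tumors. With Il11 itself, Tgfb1 had an r of 0.48 (permutation p = 0.119, BH p 0.298, rho = 0.62, permutation p = 0.0371, BH p 0.124). Of the 40 relations, 4 had an adjusted p below 0.05 for r and 5 for rho, and each of them was positive and involved Lif or Il11. These relations were looked at after the values had been seen.

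The members were also compared with markers of the cell types that a tumor can hold. A marker score is the mean, over the tested genes of a list, of the log2 value after subtraction of the gene's average over the 12 tumors. Over 10 members and 6 scores, 9 of 60 relations had an adjusted p below 0.05 for r and 0 for rho. Osmr was related to the score of 9 endothelial genes (r = 0.87, permutation p = 0.00027, BH p 0.0162, rho = 0.77, permutation p = 0.00471, BH p 0.0942), with 0.93 and 0.77 within the control and swimming groups and 0.67 without control 1 and swimming 5. Il11ra1 was related to the score of 10 fibroblast genes (r = 0.84, permutation p = 0.00083, BH p 0.0166, rho = 0.78, permutation p = 0.00378, BH p 0.0942), with 0.89 and 0.97 within the groups and 0.73 without the same tumors. For Osmr and the fibroblast score, r was 0.79 (permutation p = 0.00193, BH p 0.0289, rho = 0.71, permutation p = 0.0115, BH p 0.116) and 0.52 without control 1 and swimming 5 (permutation p = 0.121). Lifr and Osmr had an r of 0.76 and 0.73 with the score of 9 macrophage genes (permutation p = 0.00317 and 0.00668, BH p 0.038 and 0.0486, rho = 0.7 and 0.66, permutation p = 0.0136 and 0.0215), but 0.58 and 0.52 without control 3 and swimming 5 (permutation p = 0.0803 and 0.128). Il6ra and the T cell score gave 0.72 (permutation p = 0.00684, BH p 0.0486, rho = 0.55, permutation p = 0.0674) and 0.48 without control 4 and control 5 (permutation p = 0.161). The relations that lost their r in this way rest on few tumors.

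Among the cytokines, Osm was related to the score of 6 neutrophil genes (r = 0.83, permutation p = 0.00064, BH p 0.0166, rho = 0.8, permutation p = 0.00269, BH p 0.0942), with 0.95 and 0.59 within the control and swimming groups and 0.68 without control 1 and control 5. The list was led by S100a9 at 9.8 FPKM on average, while Ly6g, a defining neutrophil gene, was listed at 0 in 10 of 12 tumors. Il11 and Clcf1 were lower in tumors with more RNA of skeletal muscle genes (r = -0.73 and -0.76, permutation p = 0.00729 and 0.00515, BH p 0.0486 for both, rho = -0.73 and -0.71, permutation p = 0.00927 and 0.0126), and r was -0.82 and -0.72 without control 6 and swimming 5. Within the control and swimming groups, these relations were -0.28 and -0.97 for Il11 and -0.55 and -0.88 for Clcf1. The FPKM of the 10 muscle genes, led by Acta1, added up to between 2.6 and 281 in the 12 tumors, with 2.6 in swimming 6, 3.26 in control 5 and 281 in swimming 5. All values of a tumor share its library and are shares of its total, and the part of muscle or of any other tissue in the differences between tumors was not tested.

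**Figure D4:**
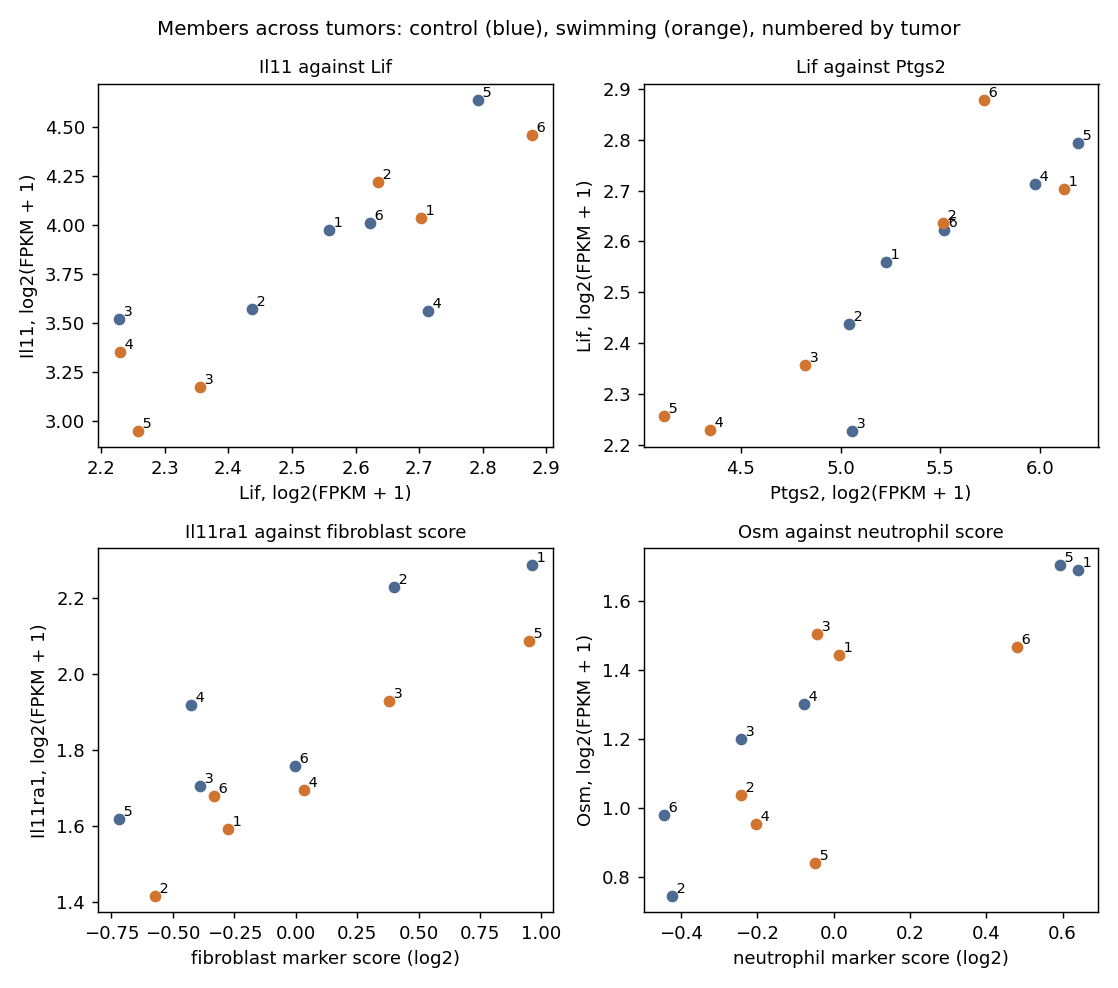
Log2(FPKM + 1) of Il11 against Lif, of Lif against Ptgs2, of Il11ra1 against the fibroblast score and of Osm against the neutrophil score in 6 control tumors (blue) and 6 swimming tumors (orange), numbered by tumor. The r over the 12 tumors is 0.85, 0.89, 0.84 and 0.83, and tumors of both groups lie along each relation.

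The rest of the pathway was followed with 4 lists, for which unadjusted p values below 0.05 are counted beside 3.11% of all genes that were higher and 2.46% that were lower. Of the 6 other family genes tested, 1 was higher at this threshold, 0 were lower and the median log2 fold change was 0.05. It was Il27, a subunit of the cytokine IL-27, whose receptor also uses Il6st, with 0.345 ± 0.104 FPKM among controls and 0.781 ± 0.258 FPKM among swimming tumors (SD, n = 6 each). Ebi3, the gene of the other IL-27 subunit and the most abundant of this list at 1.97 FPKM, had a log2 fold change of 0.08. For Il27ra, an IL-27 receptor gene, the log2 fold change was 0.03, and neither gene passed the threshold. Of the 16 genes of signal transduction, 2 were higher, 0 were lower and the median was 0.08. Among the higher genes, Stat3, the main transcription factor of the family, was at 12.1 ± 0.888 FPKM among controls and 13.1 ± 0.577 FPKM among swimming tumors, a log2 fold change of 0.12. The most abundant gene of this list was Grb2, an adaptor, at 32.3 FPKM.

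Among 18 targets of STAT3, 2 were higher, 0 were lower and the median was 0.1. Bcl3, a regulator of NF-kB, was 5.67 ± 0.717 FPKM among controls and 7.03 ± 0.667 FPKM among swimming tumors (SD, n = 6 each), a log2 fold change of 0.27. Saa3, an acute phase gene, was 1.7 ± 1.36 and 3.4 ± 1.71 FPKM in the same order (log2 fold change 0.73). Socs3, the feedback inhibitor, was 24.8 ± 3.04 and 28.2 ± 2.77 FPKM, and Timp1, an inhibitor of metalloproteinases and the most abundant target, was 538.0 ± 73.8 and 497.0 ± 108.0 FPKM. Neither of these passed the threshold. Of the 8 inducers tested, 1 was higher, 0 were lower and the median was -0.01. This was Tnf, the gene of tumor necrosis factor, at 1.11 ± 0.37 and 1.85 ± 0.413 FPKM, a log2 fold change of 0.43. For Il27, Stat3, Bcl3, Saa3 and Tnf limma gave an adjusted p of 0.889, and 0 genes of any list passed 0.05 after adjustment. Without each tumor in turn, Il27, Bcl3 and Tnf stayed below an unadjusted p of 0.05 in all 12 fits of limma's test. Stat3 did so in 4 fits, losing it without control 2, 4, 5 or 6 and without swimming 2, 3, 5 or 6, where p reached 0.114. Saa3 did so in 5 fits, losing it without control 2, 3, 4 or 6 and without swimming 3, 5 or 6, where p reached 0.0749. With the replicate number as a block, Stat3 and Saa3 had an unadjusted p of 0.096 and 0.057 in limma's test.

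In the same tumors, the log2 fold change was above 0 for all 9 T cell genes tested, with a median of 0.43. Of these genes, 6 were higher in the swimming group at this unadjusted threshold of limma, against 3.11% of all genes tested. After adjustment, 0 passed. The FPKM of the 9 genes added up to 10.4 ± 4.48 (SD, n = 6) in the control group and 17.5 ± 4.26 (SD, n = 6) in the swimming group, with Trbc2 the most abundant at 4.93 FPKM. Their part in the values of Il27 and Tnf was not tested. The sums of the fibroblast genes, led by Col1a2, were 399.0 ± 237.0 and 421.0 ± 213.0 FPKM, and those of the macrophage genes, led by C1qa, 933.0 ± 127.0 and 974.0 ± 133.0 FPKM. Neutrophil genes summed to 20.8 ± 15.5 and 19.7 ± 10.6 FPKM, endothelial genes, led by Cdh5, to 49.1 ± 10.4 and 48.7 ± 7.55 FPKM, and muscle genes to 61.5 ± 72.0 and 98.5 ± 112.0 FPKM. In none of these 5 lists did a gene pass an unadjusted p of 0.05 in limma's test. The colon epithelium genes, led by Krt20, summed to 194.0 ± 69.6 and 141.0 ± 19.8 FPKM, with 323.0 FPKM in control 4. In control 4, Krt8 was at 129 FPKM, against at most 19.95 FPKM in any other tumor. Of the 5 genes of this list that were tested, 0 passed the same threshold. For adipocyte genes, led by Fabp4, the sum was 80.0 FPKM in control 1 and 28.4 FPKM in swimming 5 and at most 14.0 FPKM in the other tumors, while of the skin genes Krt10 was between 1.5 and 2.62 FPKM and Krt1, Krt14 and Lor stayed below 0.1 FPKM in every tumor.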

How the data were processed

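Per the labels and the paper's methods, the authors removed ribosomal RNA, mapped reads with HISAT2 2.0.5 and quantified genes with StringTie 1.3.3. The deposited values are FPKM per gene, already divided by gene length and depth by the authors. The methods name hg38, the processing notes list hg38 and GRCm38, and the files hold mouse Ensembl identifiers, of which 30542 of 30630 were named from GENCODE M21 (GRCm38) by identifier. How StringTie divided reads between overlapping or near-identical genes is part of the values. Whether strand was used is not given in the sources used here.

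No tumor was left out. The values of 1 gene counted in a list are not reported here. The 19018 genes that reached 0.1 FPKM in 6 or more tumors were compared on log2(FPKM + 1) by limma 3.58.1 under R 4.3.3 (lmFit, then eBayes with trend), without covariates, followed by Benjamini-Hochberg adjustment. The comparison was tested on simulated data. For single genes, an exact permutation test (two-sided) used all 924 divisions of the 12 tumors, whose smallest p is 0.00216. Correlations used 100000 permutations and adjustment within each family of relations. Tables and plots were made with Python 3.11.15, pandas 2.3.3, scipy 1.17.1 and matplotlib 3.10.9. Members and lists were chosen with earlier results of these data known. Named are all members and the most abundant gene of each list. Genes at an unadjusted p below 0.05 are named for the 4 pathway lists, apart from the gene not reported, but not for the marker lists. For each member, the 3 most alike protein-coding genes with a mean of at least 1 FPKM are named. Others were named after their values were seen. Alternatives were other pseudocounts, filters and scalings, sample weights, no trend in eBayes, a block for the replicate number, and 1 tumor left out at a time. Leaving out control 1 and swimming 5 together, and adding up Il11ra1 with its near-identical genes, were chosen after the data were seen.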

Additional observations from a re-analysis of the deposited data

Results flagged for a closer look

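In 20 groups of 6 values, 1 for each member in each group of tumors, a tumor far from the other 5 was looked for with Dixon's ratio, and chance gives 1 such group. It was found in 3. Il11 was 23.9 FPKM in control 5, with the next control tumor at 15.1 FPKM. Il6st was 17.2 FPKM in swimming 4, with the next tumor of that group at 13.4 FPKM. Lifr was 1.99 FPKM in swimming 5, with the next at 0.93 FPKM. Swimming 5 was also the tumor with the highest fibroblast, endothelial, macrophage, T cell, muscle and adipocyte scores of its group. The part of these cell types and tissues in its Lifr value was not tested.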

How the results depend on the processing

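Under the alternatives other than leaving out a single tumor, limma gave 0 members an unadjusted p below 0.05, and 94 of 99 fold changes of single members kept their direction and their side of 0.05. A direction turned for Lif (0.0015), Osm (0.09) and Clcf1 (0.04) without both control 1 and swimming 5, and for Osm (0.0048) and Clcf1 (0.02) with sample weights. The cause was not tested. Without each tumor in turn, the log2 fold change ranged from -0.17 to -0.07 for Il6, from -0.12 to 0.01 for Lif, from -0.17 to 0.02 for Osm, from -0.33 to -0.03 for Il11, from -0.13 to 0.05 for Clcf1, from 0.05 to 0.12 for Il6ra, from -0.22 to -0.09 for Il6st, from -0.21 to 0.08 for Lifr, from -0.11 to 0.01 for Osmr and from -0.26 to -0.11 for Il11ra1. In these 12 fits, the members below an unadjusted p of 0.05 numbered 0 higher and from 0 to 1 lower. All genes below it numbered from 398 to 853 higher and from 383 to 649 lower, and after adjustment from 0 to 1 higher and from 0 to 2 lower. The list of other family genes held from 1 to 1 higher and 0 to 1 lower, signal transduction 1 to 5 higher and 0 to 1 lower, STAT3 targets 1 to 3 higher and 0 to 1 lower, and inducers 1 to 2 higher and 0 to 0 lower.

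With a filter of 1 FPKM, which tests fewer genes and leaves out Il6, Lifr and Il27, 391 genes were higher in place of 591, and 0 other family genes in place of 1. With sample weights, 1 gene was lower after adjustment and 4 genes of signal transduction were higher in place of 2. Without the trend in eBayes, 1 gene of signal transduction was higher. The tumor numbers occur in both groups but mark different mice, and same-numbered tumors had a mean correlation of -0.12 between their deviations, against 0.0246 for other pairs, with 0 of 6 control tumors closest to their own number. With the replicate number as a block, 0 members passed, 1 STAT3 target was lower and 451 genes were higher and 441 lower at an unadjusted p of 0.05, in place of 591 and 467. Read numbers are not known from FPKM, so the counting error of the members is unknown, and control 2 had the lowest relative depth.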

Other observations

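For each member, the 3 genes with the most similar pattern over the 12 tumors were taken by the Pearson r of log2(FPKM + 1) after subtracting the mean of each group. They are the extremes of 10994 to 10995 genes compared per member and are given as a description. For Il11 they were Ereg, which encodes the EGF receptor ligand epiregulin (r = 0.92), Tmem60 (r = 0.91) and Ercc1 (r = 0.9). For Lif they were Ercc1 (r = 0.95), Pvr, which encodes a nectin-like adhesion molecule recognized by NK and T cells (r = 0.94), and Slc25a33 (r = 0.94), so that Ercc1 was shared by Lif and Il11. Osm had Eif4ebp1, a repressor of translation (r = 0.96), Tmem115 (r = 0.95) and the monocyte chemokine gene Ccl2 (r = 0.91). For Clcf1 they were Psmc2, a proteasome gene (r = 0.92), Nppb, which encodes a natriuretic peptide (r = 0.86), and Nme6 (r = 0.86), and for Il6 they were Pdzd11 (r = 0.91), Neu1 (r = 0.91) and Cox4i1 (r = 0.84).

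Among the receptors, Il11ra1 had Nt5dc2 (r = 0.96), Ccdc80, a gene of the extracellular matrix (r = 0.94), and Cyp1b1 (r = 0.94), and 213 genes had an r above 0.8 with it. Osmr had Pepd, a dipeptidase of collagen turnover (r = 0.96), Tsnax (r = 0.95) and Sidt2 (r = 0.94), with 198 genes above 0.8. For Lifr they were Isoc2a (r = 0.94), Stard8 (r = 0.94) and Poldip2 (r = 0.93). Il6ra had Map1a (r = 0.97), Eml3 (r = 0.95) and Acp5, a gene of macrophages and osteoclasts (r = 0.94). Il6st had Uqcrc2 (r = 0.86), Lyrm4 (r = 0.85) and Xrcc6 (r = 0.84) as the closest and 7 genes above 0.8. Clcf1 and Il6 had similarly few, with 10 and 11 genes above 0.8.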
